A study of Mus musculus with 54 samples.

Results

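The genes described here encode the proteins of the cytosolic ribosome. They are all rows of the expression table whose symbol is Rpl or Rps followed by a number, with an optional a, l, x or y and a further digit, together with Rplp0, Rplp1, Rplp2 and Rpsa. The rule uses names alone and no measured value. It takes 86 of 19068 genes, 51 of the large and 35 of the small ribosomal subunit. Of these, 77 are the standard ribosomal protein genes, called core genes here, and 9 are paralogs or processed copies of them (Rpl7l1, Rpl22l1, Rpl36al, Rpl32l, Rpl6l, Rps27l, Rps4l, Rps3a2 and Rps3a3). By the annotation, 81 of the 86 are protein coding and 5 are processed pseudogenes (Rps3a2, Rps3a3, Rpl32l, Rpl6l and Rps4l). The genes lie on 19 chromosomes, and 30 of them hold 58 small nucleolar RNA genes within their bounds, on the same strand. All 86 passed the filter on low values (1 TPM, a read density scaled to gene length and library size, or more on average), as did 15424 genes in all. The deposited TPM did not sum to the same total in each library, as given below.

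The ribosome is assembled from ribosomal RNA and one copy of most ribosomal proteins, so cells keep the output of these genes in proportion to each other. Most of their mRNAs begin with a C followed by an unbroken run of C and T, the terminal oligopyrimidine tract or TOP, through which the kinase mTOR and the binding protein Larp1 set their translation and stability. In the proximal tubule, a segment that reabsorbs glucose and grows in diabetes, mTOR activity and protein synthesis are known to rise as the tubule enlarges.

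The samples are late proximal tubules (the S3 segment) of mouse kidney, cut out by laser as tubules that bound the lectin LTL and lacked SGLT2, 70 to 80 tubules per sample. All animals were male DBA mice, 14 weeks old. The nondiabetic mice carried normal Ins2, and the diabetic mice carried 1 Akita allele of Ins2, which damages the insulin-producing cell and models type 1 diabetes. Within each kind, some mice were wild type and others lacked Sglt1 (gene Slc5a1), which takes up glucose in this segment. For 2 weeks they received vehicle or dapagliflozin, an SGLT2 inhibitor, at 10 mg per kg of diet. A further group, Akita wild-type mice, received the GLP-1 receptor agonist semaglutide at 3 nmol per kg of body weight per day by injection. Values were present for 52 of the 54 labelled samples, 6 in each group except Akita wild-type dapagliflozin and Akita wild-type semaglutide, with 5 each. The labels do not say whether each sample came from a different animal, so p-values measure only the spread between these samples.

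Slc5a1 checked the genotype labels: it ranged from 0.151 to 1.34 TPM over the 24 knockout libraries and from 27.3 to 103 TPM over the wild-type ones. All 10 markers of the S3 segment were present, with a summed level of 1772 to 6967 TPM. Markers of other segments and cell types were present as well, at 360 to 4574 TPM for the 5 thick ascending limb markers, 113 to 1656 TPM for the 8 markers of the S1 and S2 segments, and 332 to 1085 TPM for the 10 macrophage and dendritic cell markers. Slc5a2, which encodes SGLT2, ranged from 3.93 to 205 TPM. The TPM of a library summed to between 984393 and 2253870, and mitochondrial ribosomal RNA made up 20.3 to 52.3% of it. Read depth is unknown for all libraries. In such bulk samples a smaller number of cells of one type and less RNA per cell cannot be told apart.

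The listed start sites were searched for runs of C and T. This pattern is looser than the TOP defined above, as neither a first C nor an exact position was required. The counts therefore do not say which genes carry or lack a TOP. RefSeq promoters of GRCm38.p6 were matched to 62 of the 86 genes, and 9 of these list more than 1 start, of which the first was used. A run of at least 8 C or T letters on the gene's strand that touched the 10 bases on either side of the listed start was found in 28 of the 62 (45.2%), against 13.5% of all 27025 promoters in the table. The windows below run 5′ to 3′ from 15 bases before the listed start, and capitals mark the longest run of C and T that touches the 10 bases on either side of that start. The first 7 were chosen to show a run of at least 8, and they include Rpl27a and Rpl28, which had the smallest p for averaged diabetes and the averaged knockout. The last 4 are highly expressed or well studied genes whose listed start carries a shorter run.
Rpl27a (chr7:109519180-109519209, plus strand): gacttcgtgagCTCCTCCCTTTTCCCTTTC
Rpl28 (chr7:4792950-4792979, plus strand): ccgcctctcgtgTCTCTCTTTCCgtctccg
Rpl15 (chr14:18270972-18271001, minus strand): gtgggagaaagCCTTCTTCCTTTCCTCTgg
Rplp2 (chr7:141447636-141447665, plus strand): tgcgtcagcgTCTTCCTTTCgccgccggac
Rps6 (chr4:86857353-86857382, minus strand): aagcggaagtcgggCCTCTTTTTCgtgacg
Rps10 (chr17:27635230-27635259, minus strand): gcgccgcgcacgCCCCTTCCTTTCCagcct
Rps27 (chr3:90213634-90213663, minus strand): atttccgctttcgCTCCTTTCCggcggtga
Rpl5 (chr5:107900513-107900542, plus strand): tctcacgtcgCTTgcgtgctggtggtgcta
Rpl11 (chr4:136053379-136053408, minus strand): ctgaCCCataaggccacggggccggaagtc
Rpl19 (chr11:98026695-98026724, plus strand): tgaccaaacgCCCTCactgcgcatgtgcgc
Rps15 (chr10:80292416-80292445, plus strand): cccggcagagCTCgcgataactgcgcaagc

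The run covers 20 letters in Rpl27a and goes beyond the printed window, and it covers 17 in Rpl15 and 10 in Rps6. Where the run is short, no longer run touches those bases around the listed start. Over the 300 bases from 250 before to 50 after the start, searched on both strands, CCGGAAG, the core letters bound by ETS factors such as GABPA, stood in 24 of the 62 promoters (38.7%) and in 9.12% of all. AAGATGGC, the YY1 core, stood in 5 (8.06%) against 2.88%, and CTTTCC in 29 (46.8%) against 26.3%. TATAAA, the TATA box, stood in 7 (11.3%) against 14.2%.

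The core genes were all expressed. Among the highest were the large subunit protein genes Rpl13a at 510 ± 127 TPM (SD, n = 52), Rpl19 at 463 ± 133, Rpl26 at 461 ± 138 and Rpl13 at 445 ± 97 TPM. Each of these 4 SDs is larger than the gap to the next gene in the order. The genes rise and fall together between libraries, as given below, so these SDs do not decide the order. The lowest core gene was Rps13 at 33.9 ± 11.4 TPM. The median core gene stood at 157 TPM, at 170 for the 46 core genes of the large subunit and 144 for the 31 of the small subunit, and 56 of the 77 lay within 2-fold of that median. TPM is scaled to gene length, which permits these comparisons between genes, but reads shared with the many processed pseudogenes of this family make each level uncertain.

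**Figure D1:**
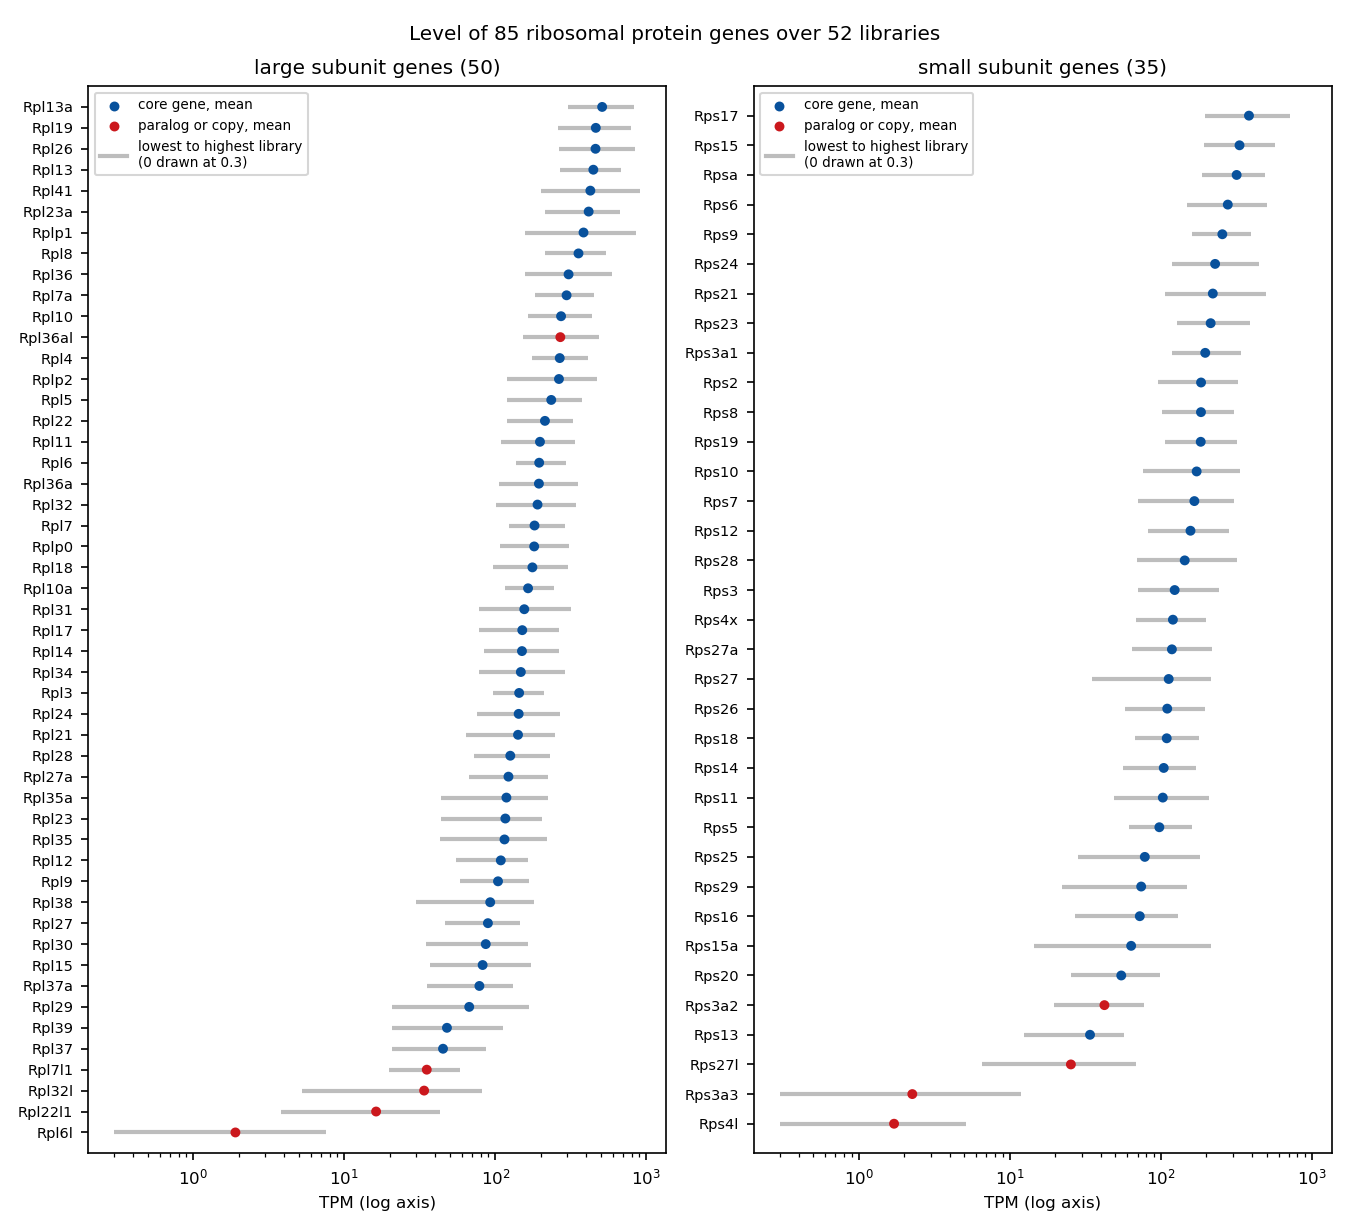
Level of 85 ribosomal protein genes in TPM (log axis), large subunit left and small subunit right. Points are means over 52 libraries (blue, core genes; red, paralogs and copies) and grey bars run from the lowest to the highest library, with 0 drawn at 0.3. Core genes reach from 33.9 TPM (Rps13) to 510 TPM (Rpl13a) in the plot, and Rps4l, Rpl6l and Rps3a3 lie below 3 TPM.

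The order of the core genes was kept from library to library. Spearman's rho between 2 libraries over the 77 core genes ranged from 0.795 to 0.976, with a median of 0.935 over 1326 pairs of libraries. The 10 genes with the highest mean over all libraries held 26.4 to 31.7% of the family's TPM in a library (median 28.8%). Of the 86 genes, 83 had a value in every library. The 3 others, Rps3a3, Rpl6l and Rps4l, lacked a value in 9, 6 and 6 libraries and had means of 2.26 ± 2.19, 1.90 ± 1.496 and 1.71 ± 1.22 TPM (SD, n = 52). These are single-exon processed copies, whose reads cannot be told with certainty from those of Rps3a1, Rpl6 and Rps4x.

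The level of the whole family differed between libraries far more than between groups. The family made up 0.655 to 1.55% of a library's TPM (median 0.977%), or 1.03 to 2.59% outside mitochondrial ribosomal RNA. The median of the 86 genes on the log2(TPM + 1) scale ranged from 6.53 to 7.84. In nondiabetic wild-type vehicle libraries its lowest, median and highest values were 6.53, 7.05 and 7.84, so this single group spanned the whole range. The group means and SDs were 7.18 ± 0.56 for nondiabetic wild-type vehicle, 7.28 ± 0.27 for nondiabetic wild-type dapagliflozin, 7.11 ± 0.20 for nondiabetic knockout vehicle and 6.95 ± 0.19 for nondiabetic knockout dapagliflozin (n = 6 each). They were 7.36 ± 0.28 for Akita wild-type vehicle, 7.28 ± 0.42 for Akita knockout vehicle and 7.05 ± 0.15 for Akita knockout dapagliflozin (n = 6 each). They were 7.26 ± 0.34 for Akita wild-type dapagliflozin and 7.16 ± 0.28 for Akita wild-type semaglutide (n = 5 each). The pooled SD within groups was 0.32, and the libraries of every group overlapped those of every other.

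**Figure D2:**
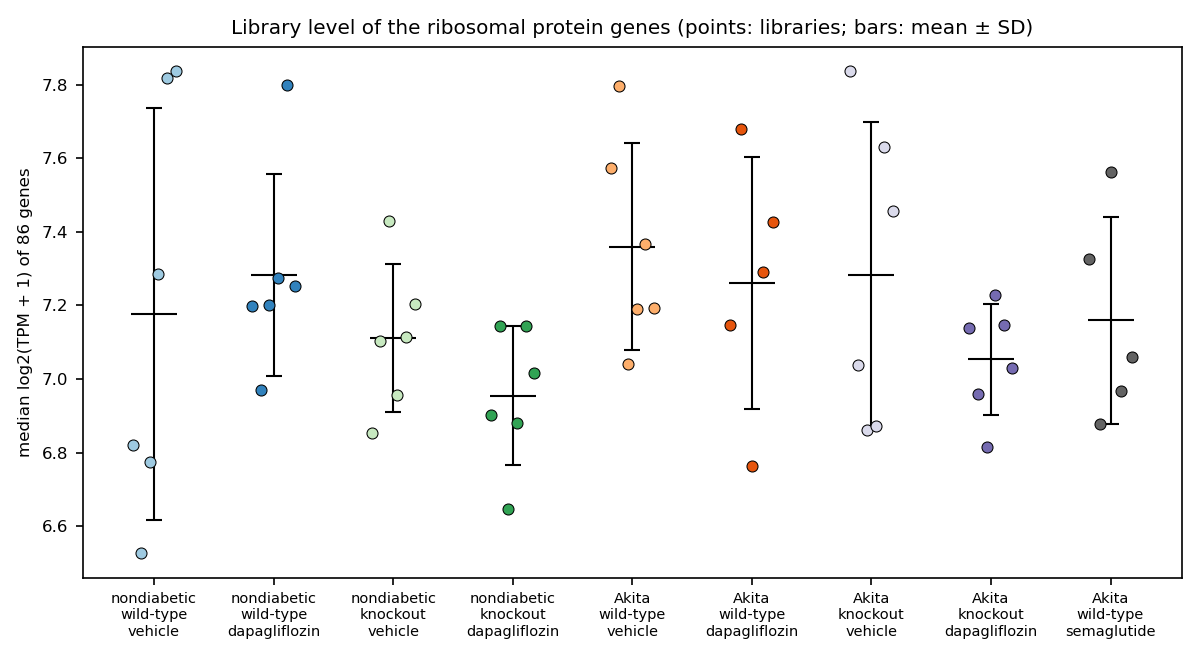
Median log2(TPM + 1) of the 86 ribosomal protein genes in each of the 52 libraries, by group. Points are libraries and black bars are the mean ± SD of a group. Nondiabetic wild-type vehicle libraries reach from 6.53 to 7.84, the range of the whole series, and all groups overlap.

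The genes went up and down together from library to library. With group means removed, the median Pearson correlation between 2 of the 83 genes that averaged 10 TPM or more was 0.68 over 3403 pairs, and 98.4% of the pairs were above 0. The first principal component of these genes held 62.6% of their variance within groups. A core gene correlated with the mean of the others at a median of 0.84, from 0.38 for Rpl12, which is part of the base of the ribosomal stalk, to 0.96 for Rpl19. Of the 9 paralogs and copies, 4 lay within the core range: Rpl7l1 stood at 0.52, Rps3a2 at 0.62, Rps27l at 0.81 and Rpl36al at 0.88. The other 5 lay below it, with Rpl32l at -0.01, Rps4l at -0.13, Rps3a3 at 0.16, Rpl6l at 0.19 and Rpl22l1 at 0.21, and 3 of these (Rps4l, Rps3a3 and Rpl6l) averaged below 3 TPM. These correlations are over 52 libraries that share their scaling, so they are given as a description with no p.

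Outside the family, the genes most like it were short and abundant. Among 15338 other tested genes the median correlation with the mean of the family was -0.01, and 75 of them (0.489%) reached the core median of 0.84. The 5 closest were Atpif1, the inhibitor of the mitochondrial ATP synthase (0.93), Dbi, which binds acyl-CoA (0.93), Hint1 (0.92), Park7 (0.92) and Ndufa4, a respiratory chain protein (0.91). Of the 50 closest, 25 have symbols of the respiratory chain or the ATP synthase, and their median transcript length was 751.5 bases. The 50 farthest had a median length of 6807 bases, with Tnxb at -0.75 and Pkhd1 at -0.74, against 2819 bases for all other tested genes and 914 for the core genes. These are the extremes. Over all other tested genes, the median correlation was 0.06 for the 1787 under 1000 bases and -0.17 for the 2773 over 5000 bases. Most short genes were thus far from the core median.

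The library level of the family also moved with measures of the library itself. With group means removed, its median member correlated with the sum of TPM at a Pearson r of 0.75 (Spearman's rho 0.73, and r 0.73 without the 2 libraries farthest from the median sum). Its r was 0.48 with the percent of mitochondrial ribosomal RNA and -0.43 with the mean log2(TPM + 1) of markers of other cell types. It was 0.68 with a score of short minus long transcripts, the mean log2(TPM + 1) of other genes under 1000 bases minus that of genes over 5000 bases. These are descriptions over 52 libraries with no p, and their part in the differences between groups was not tested beyond the covariate fits given below.

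**Figure D3:**
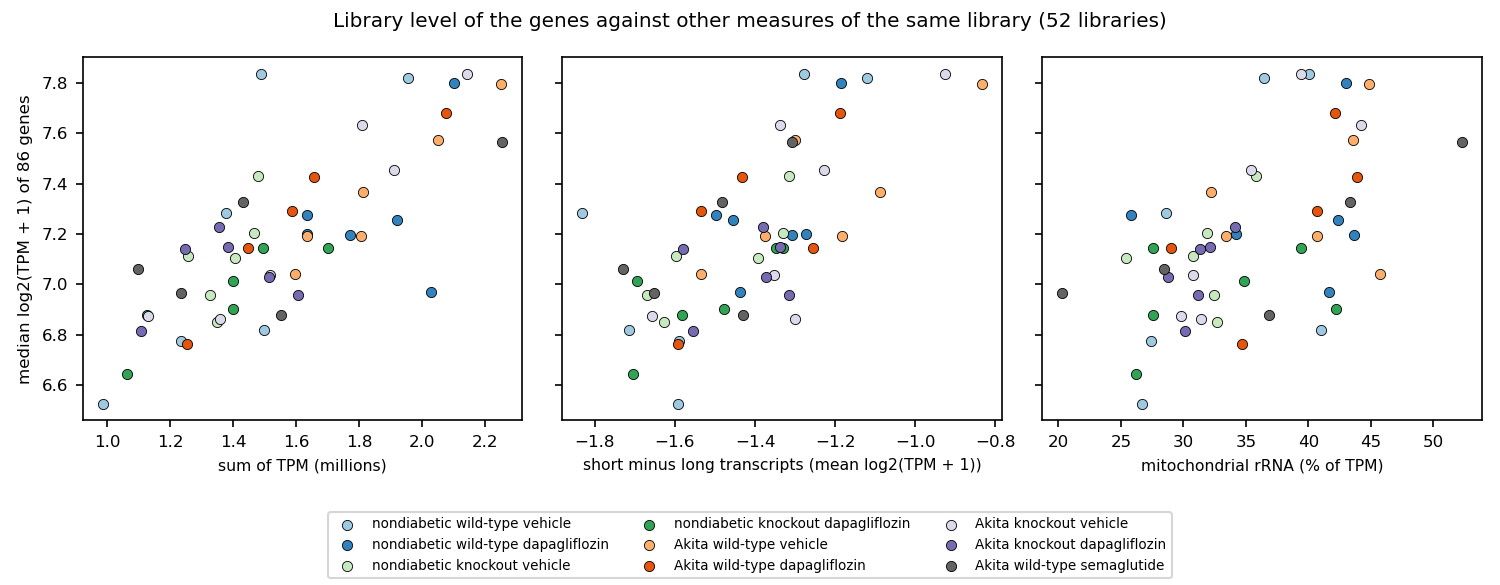
Median log2(TPM + 1) of the 86 genes (vertical axis) in 52 libraries against the sum of TPM, the difference in mean log2(TPM + 1) between short and long transcripts of other genes, and the percent of TPM from mitochondrial ribosomal RNA. Points are libraries, coloured by group. With group means removed, the Pearson correlations are 0.75, 0.68 and 0.48.

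The design asks whether diabetes, loss of Sglt1 and the 2 drugs change these genes, alone or in combination. In none of the 16 comparisons and 3 interactions did a ribosomal protein gene pass the test (limma on log2(TPM + 1), Benjamini-Hochberg adjusted p under 0.05 over 15424 genes). Few other genes passed either, so a count of 0 of 86 is near the background in each comparison. In the single-stratum comparisons the 95% interval of a member's log2 change reached a median of 0.46 to 0.49 to either side, and between 67 and 81 of the 86 intervals lay wholly within 1 of 0. In the 3 averaged comparisons it reached 0.24 and all 86 intervals lay wholly within 1 of 0, which is a change of 2-fold. The comparisons share control libraries, so their values are set side by side and not counted as separate evidence. Values called rescaled were set to the same total outside mitochondrial ribosomal RNA. This scales all genes of a library alike, so the rescaled median of all genes stands beside that of the family. The gap between the 2 medians could hardly change under it and is no separate check. A second rescaling, by the median ratio of a library's genes to their geometric mean, used factors from 0.887 to 1.07. Those of the first ran from 0.722 to 1.30, so the rescaled counts above 0 hold for the first alone. The genes named in each comparison are the 2 with the smallest p above 0 and the 2 with the smallest p below 0.

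**Figure D4:**
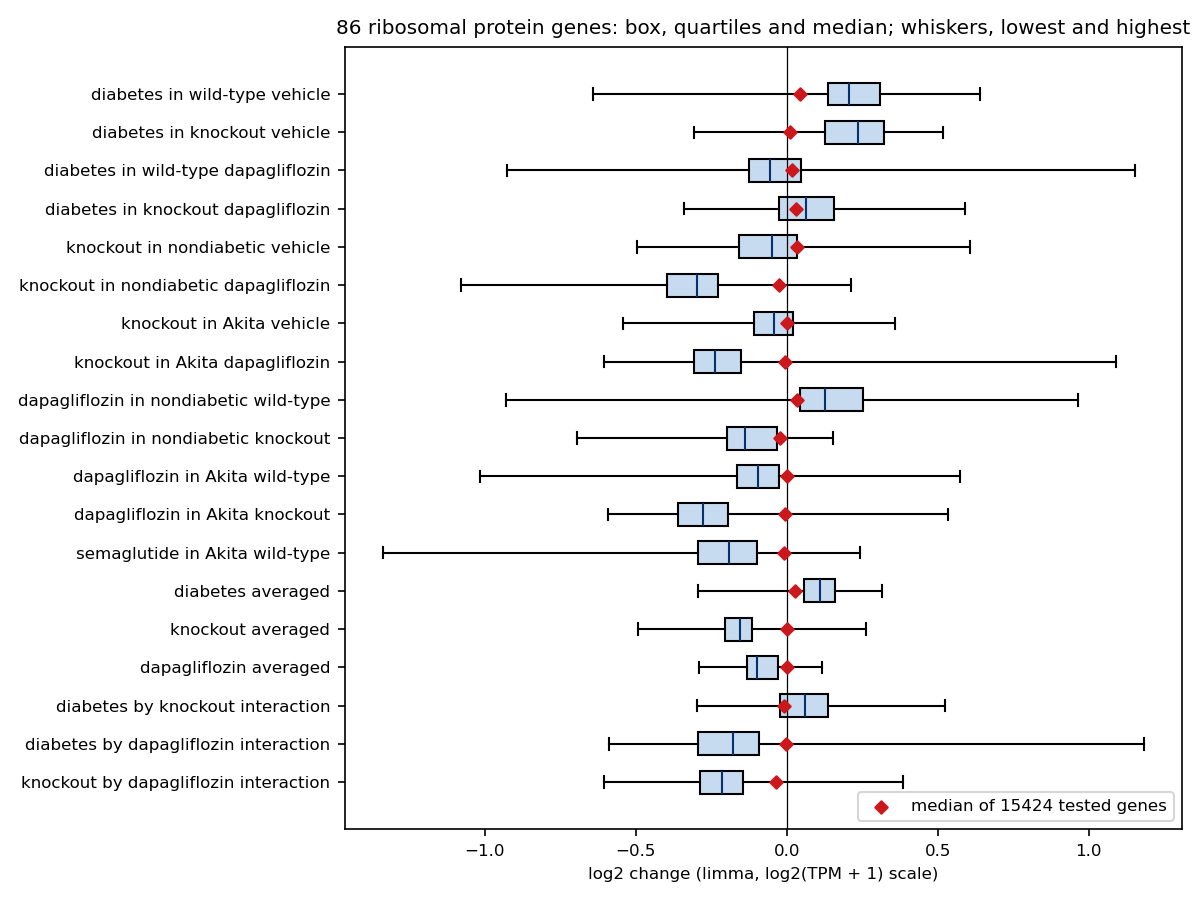
Log2 changes of the 86 ribosomal protein genes in each comparison and interaction (limma, log2(TPM + 1) scale). Boxes show quartiles and the median, whiskers the lowest and highest gene, and red diamonds the median of all 15424 tested genes. The box lies above the diamond for diabetes in vehicle libraries, averaged diabetes and dapagliflozin in nondiabetic wild-type mice. It lies below for the knockout with dapagliflozin, the averaged knockout, the other dapagliflozin comparisons, semaglutide and both interactions with dapagliflozin. None of the 86 genes passed the test in any comparison.

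Diabetes, taken as the mean of its 4 strata without semaglutide (23 Akita against 24 nondiabetic libraries), called 0.966% of all tested genes and 0 of the 86. The median log2 change of the family was 0.11 against 0.03 for all genes, and 79 of the 86 values were above 0. Rescaled, 63 were above 0, with a median of 0.05 against -0.03 for all genes. With a covariate in the fit, 45 were above 0 for the TPM sum (median 0.01), 45 for the score of other cell types (0.01) and 25 for the short-minus-long score (-0.07). The TPM sum and the short-minus-long score were chosen as covariates after seeing the data. Rpl27a, a large subunit protein gene on chromosome 7 (109519147 to 109522367, GRCm38) whose C and T run is shown above, had the smallest p. Its lowest, median and highest levels were 66.7, 108 and 193 TPM in nondiabetic and 86.2, 128 and 222 TPM in Akita libraries. The ranges overlap over most of their length, and the log2 difference of 0.30 (SE 0.10) had a limma adjusted p of 0.156. Rpl5, which carries 5S ribosomal RNA into the large subunit, came next at 0.24 (SE 0.09, adjusted p 0.187), with 119, 210 and 332 TPM in nondiabetic and 182, 239 and 372 TPM in Akita libraries. At an unadjusted p under 0.05 stood 6 of the 86 (6.98%), all above 0 (Rpl27a, Rpl5, Rps2, Rpl10a, Rpl14 and Rps3). Of all tested genes, 8.61% stood above 0 at that p, and 13.4% in either direction. Among values below 0, the smallest p belonged to Rpl22l1 (-0.29, SE 0.17) and Rpl12 (-0.07, SE 0.09).

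In wild-type mice on vehicle, diabetes called 0.389% of all genes and 0 of the 86, with 3 at an unadjusted p under 0.05 against 10.2% of all genes. The family's median was 0.21 against 0.05 for all genes, and 78 of the 86 values were above 0. Rpl7l1, a nucleolar paralog of Rpl7 that takes part in ribosome assembly, had 19.7, 25.7 and 58.5 TPM (lowest, median, highest) in nondiabetic and 29.4, 38.5 and 49.4 TPM in Akita libraries. Its highest nondiabetic library, replicate 5, lay above all Akita libraries. Its log2 difference of 0.43 (SE 0.18) did not pass (limma adjusted p 0.365), but without that replicate the gene was called (log2 0.64, adjusted p 0.0346). That fit called 148 of the 15424 tested genes, against 60 in the main fit, so 1 of the 86 is near the background. In libraries shuffled between groups, false calls made up a larger share of the calls in this comparison than its threshold aims at, so adjusted p-values here may be too small. Rpl27a stood at 0.43 (SE 0.20), and Rpl22l1 and Rpl12 had the lowest p below 0, at -0.64 (SE 0.33) and -0.17 (SE 0.19). The sum of TPM was 1422237 ± 323329 in nondiabetic and 1857901 ± 250664 in Akita libraries of this comparison (SD, n = 6 each). Rescaled, 28 of the 86 values were above 0 and the median was -0.05, while that of all genes moved from 0.05 to -0.18. Without the 3 libraries highest in markers of other cell types, 35 were above 0 and the median was -0.04, and without nondiabetic wild-type vehicle replicate 2 alone it was 0.09. Of 23 alternatives, 4 turned the family's median below 0. They were the first rescaling, leaving out those 3 libraries, and the TPM sum and the short-minus-long score as covariates. Both covariates were chosen after seeing the data, and both moved with the family's level within groups. The rescaling by median ratio was not among them.

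In knockout mice on vehicle the family's median for diabetes was 0.24 (79 above 0), with 0% of all genes and 0 of the 86 called and 2 members at an unadjusted p under 0.05 against 6.65% of all genes. The smallest p above 0 belonged to Rpl27a at 0.52 (SE 0.20, adjusted p 0.697 in limma) and Rps14 at 0.50 (SE 0.25), and that below 0 to Rpl32l (-0.31) and Rps12 (-0.15). Rescaled, 61 values were above 0, with a median of 0.10 against -0.11 for all genes. With dapagliflozin, diabetes gave a median of -0.06 in wild-type mice (30 above 0, 0.00648% of genes called) and of 0.06 in knockout mice (56 above 0, 0% called), with 0 of 86 called and 2 and 1 members at an unadjusted p under 0.05 against 3.46 and 5.12% of all genes. Rescaled, 71 values were above 0 in wild-type mice, with a median of 0.15 against 0.20 for all genes. In knockout mice 48 were, with 0.01 against -0.02. Without Akita wild-type dapagliflozin replicate 4 the unscaled median in wild-type mice was 0.09, and without nondiabetic knockout dapagliflozin replicate 2 that in knockout mice was -0.02. In wild-type mice the named values were 1.15 (SE 0.52) for Rps3a3, 0.25 for Rpl10a, -0.92 (SE 0.41) for Rpl32l and -0.47 for Rpl22l1. In knockout mice they were 0.58 (SE 0.26) for Rpl21, 0.34 for Rpl5, -0.34 for Rps16 and -0.21 for Rpl28.

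Loss of Sglt1, as the mean of its 4 strata (24 knockout libraries set against 23 of wild type), called 0.0519% of all genes and 0 of the 86. The family's median log2 change was -0.15 against 0.00 for all genes, and 4 of the 86 values were above 0. Rpl28, a large subunit protein gene on chromosome 7 (4792874 to 4795066, GRCm38), had 81.5, 138 and 230 TPM (lowest, median, highest) in wild-type and 72.8, 104 and 221 TPM in knockout libraries. The ranges overlap, and its log2 difference of -0.34 (SE 0.11) had a limma adjusted p of 0.373. Rpl30 stood at -0.33 (SE 0.12), with 63.4, 90.1 and 163 TPM in wild-type and 34.9, 77.3 and 128 TPM in knockout libraries. At an unadjusted p under 0.05 stood 14 members, all below 0, against 7.22% of all genes (3.42% below 0). Among the 4 values above 0, the smallest p belonged to 2 processed copies, Rpl6l at 0.26 (SE 0.22) and Rpl32l at 0.21 (SE 0.20). Rescaled, 20 of the 86 were above 0 and the median was -0.04 against 0.10 for all genes. With the TPM sum fitted as a covariate, a choice made after seeing the data, 67 were above 0.

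In nondiabetic mice on vehicle the family's median was -0.05 (29 above 0, 0.0195% of genes called), with Rpl6l at 0.61, Rpl32l at 0.49, Rps27 at -0.50 and Rpl38 at -0.49. In Akita mice on vehicle it was -0.04 (28 above 0, 0.0259% called), with Rpl22l1 at 0.36, Rps10 at 0.18, Rps12 at -0.29 and Rps27l at -0.54. Neither had a member called by limma or at an unadjusted p under 0.05, against 5.20 and 3.10% of all genes. In nondiabetic mice on dapagliflozin the median was -0.30 (3 above 0, 0.0324% called), 0 of the 86 were called and 14 were below 0 at an unadjusted p under 0.05 against 3.57% of all genes below 0. Rpl21 there stood at -0.87 (SE 0.26, adjusted p 0.555 in limma) and Rps7 at -0.64 (SE 0.21), against 0.21 for Rpl37 and 0.05 for Rpl29. In that comparison the sum of TPM was 1363802 ± 236783 in knockout and 1847246 ± 199906 in wild-type libraries (SD, n = 6 each). Rescaled, 47 of the 86 values were above 0, with a median of 0.02 against 0.26 for all genes. In Akita mice on dapagliflozin the median was -0.24 (5 above 0, 0.0195% called), with 0 of the 86 called and 2 at an unadjusted p under 0.05 against 3.30% of all genes. Rescaled, 10 were above 0, with a median of -0.17 against 0.05. Rpl32l stood at 1.09 (SE 0.41), Rpl6l at 0.58, Rpl28 at -0.50 and Rps10 at -0.46. Rescaled, the nondiabetic vehicle comparison had 24 values above 0 (median -0.08, all genes 0.01) and the Akita one 57 (0.04, all genes 0.08). When replicate 5 of the wild-type vehicle group was left out, the unscaled median was 0.06 in nondiabetic mice, and it was also 0.06 in Akita mice. With dapagliflozin they were -0.18 without nondiabetic wild-type replicate 5 and -0.12 without Akita wild-type replicate 3.

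Dapagliflozin, averaged over diabetes and genotype (23 against 24 libraries), called 0% of all genes and 0 of the 86 in limma, with 0 members at an unadjusted p under 0.05 against 4.09% of all genes. The family's median was -0.10 against 0.00, and 9 of the 86 values were above 0. Rescaled, 18 were, with a median of -0.07 against 0.02. Rps19, a small subunit protein mutated in Diamond-Blackfan anaemia, had 107, 181 and 320 TPM (lowest, median, highest) with vehicle and 112, 168 and 257 TPM with dapagliflozin. Its log2 difference was -0.18 (SE 0.10). Rpl22l1 stood at -0.29 (SE 0.17), Rpl7l1 at 0.09 (SE 0.09) and Rps15a at 0.12 (SE 0.22).

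By stratum, the family's median for dapagliflozin was 0.13 in nondiabetic wild-type mice (72 above 0, 0.00648% of genes called) and -0.14 in nondiabetic knockout mice (16 above 0, 0% called). It was -0.10 in Akita wild-type mice (14 above 0, 0% called) and -0.28 in Akita knockout mice (3 above 0, 0% called). Without nondiabetic wild-type dapagliflozin replicate 5 the first of these medians was 0.01, and without Akita wild-type dapagliflozin replicate 4 the third was 0.04. Rescaled, the counts above 0 were 17, 27, 66 and 16 in the same order. The rescaled medians were -0.16 against -0.22 for all genes, -0.07 against 0.04, 0.08 against 0.16 and -0.12 against 0.13. In limma 0 of the 86 were called in any of the 4, with 2, 1, 1 and 3 at an unadjusted p under 0.05, against 7.03, 4.74, 2.39 and 3.13% of all genes. In nondiabetic wild-type mice Rpl7l1 stood at 0.42 (SE 0.18), Rps15a at 0.97 (SE 0.44), Rps3a3 at -0.93 and Rpl37 at -0.33. In nondiabetic knockout mice Rps7 stood at -0.48 (SE 0.21), Rpl12 at -0.37, Rpl7l1 at 0.15 and Rpl28 at 0.13. In Akita wild-type mice the values were -1.01 (SE 0.41) for Rpl32l, -0.30 for Rps19, 0.57 for Rps3a3 and 0.13 for Rpl12. In Akita knockout mice they were -0.59 (SE 0.23) for Rps10, -0.57 (SE 0.25) for Rpl36, 0.53 for Rpl32l and 0.30 for Rpl6l.

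Semaglutide in Akita wild-type mice (5 against 6 vehicle libraries) called 0% of all genes and 0 of the 86 in limma, with 2 members at an unadjusted p under 0.05 against 5.19% of all genes. The family's median was -0.19 against -0.01, with 6 of the 86 above 0. Rescaled, 60 were above 0, with a median of 0.06 against 0.22 for all genes. Leaving out 1 library moved the unscaled median to between -0.29 (without semaglutide replicate 4) and -0.09 (without vehicle replicate 5). Rpl32l, a single-exon gene annotated as a processed pseudogene and named for Rpl32, on chromosome 10 (20208490 to 20208888, GRCm38), had 30.4, 41.7 and 50.2 TPM (lowest, median, highest) in vehicle libraries. In the 5 semaglutide libraries it had 21.2, 14.997, 20.6, 5.28 and 21.9 TPM. All 5 semaglutide libraries lay below all 6 vehicle libraries, but the log2 difference of -1.34 (SE 0.41) had an adjusted p of 0.546 over all genes. The same gene ranged from 11.1 to 57.7 TPM within nondiabetic wild-type dapagliflozin libraries alone. Rpl27a stood at -0.47 (SE 0.21), with 113, 144 and 222 TPM in vehicle libraries and 100.9, 92.2, 153, 118 and 81.6 TPM in semaglutide libraries. The values above 0 with the smallest p were 0.20 (SE 0.19) for Rpl12 and 0.21 (SE 0.22) for Rpl22.

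The interactions test whether one condition changed the effect of another, and 0 of the 86 genes passed in any of the 3 (limma). For diabetes by knockout 0% of all genes were called and 0 members stood at an unadjusted p under 0.05 against 3.33% of all genes, with a family median of 0.06 (61 above 0). Rescaled, 39 were above 0, with -0.01 against -0.07 for all genes. Rpl21 stood at 0.44, Rpl22l1 at 0.53, Rps12 at -0.27 and Rps16 at -0.30. For diabetes by dapagliflozin 0.00648% of genes were called and 3 members had an unadjusted p under 0.05 against 4.51% of all genes, with a median of -0.18 (8 above 0). Rescaled, 60 were above 0, with 0.09 against 0.24 for all genes. Rps3a3 stood at 1.18 (SE 0.50), Rpl12 at 0.12, Rpl7l1 at -0.39 (SE 0.18) and Rps16 at -0.59 (SE 0.27). For knockout by dapagliflozin 0% were called and 3 members had an unadjusted p under 0.05 against 3.97% of all genes, with a median of -0.21 (4 above 0). Rescaled, 28 were above 0, with -0.06 against 0.11. Rpl32l stood at 0.39, Rpl37 at 0.04, Rpl36 at -0.60 (SE 0.26) and Rps10 at -0.49 (SE 0.24).

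The stalk proteins recruit the elongation factors to the ribosome. Rplp1 had the widest spread of the 3, from 158 to 849 TPM over all libraries, with 397 ± 201 TPM in nondiabetic and 419 ± 90 TPM in Akita wild-type vehicle libraries (SD, n = 6 each). Rplp2 stood at 258 ± 112 and 282 ± 62.7 TPM and Rplp0, which anchors the other two, at 172 ± 49.3 and 197 ± 33.7 TPM in the same groups. Their averaged diabetes values were 0.23 (SE 0.15), 0.03 (SE 0.12) and 0.17 (SE 0.10) for Rplp1, Rplp2 and Rplp0. For all 3 the SD within a group exceeded the difference between these 2 groups.

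Rpl5 and Rpl11 form a particle with 5S ribosomal RNA that, when ribosome assembly fails, binds Mdm2 and so frees the transcription factor p53. Rpl11 had 195 ± 81.9 TPM in nondiabetic and 228 ± 42.4 TPM in Akita wild-type vehicle libraries (SD, n = 6 each), and Rpl5 had 234.97 ± 64.9 and 271 ± 55.01 TPM. Their log2 differences were 0.31 (SE 0.22) and 0.23 (SE 0.17), and neither passed. In the same comparison Mdm2 rose (log2 0.85, SE 0.15, limma adjusted p 0.000727), as did Cdkn1a, the p53-induced cell cycle inhibitor (log2 1.46, SE 0.34, adjusted p 0.0253), with the limit on adjusted p-values given above for this comparison. Values of Mdm2 and Cdkn1a in other comparisons are not given here, and a link to Rpl5 or Rpl11 was not tested. Rps27l, a paralog of Rps27 and itself a known p53 target, stood at 0.40 (SE 0.45, adjusted p 0.819), with 12.3, 25.03 and 67.9 TPM in nondiabetic and 15.1, 37.6 and 51.9996 TPM in Akita libraries.

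Rps6, the substrate of the S6 kinases downstream of mTOR, had 278 ± 112 TPM in nondiabetic and 311 ± 89.2 TPM in Akita wild-type vehicle libraries (SD, n = 6 each). Averaged over the strata its diabetes value was 0.22 (SE 0.11, limma adjusted p 0.373). RNA levels say nothing of its phosphorylation. Rpsa, also known as the laminin receptor, stood at 317 ± 94.4 and 362 ± 75.1 TPM in these 2 groups, with 0.16 (SE 0.09) for averaged diabetes and -0.23 (SE 0.09) for the averaged knockout. Rps3, which also acts in DNA repair, stood at 0.25 (SE 0.12) for averaged diabetes and -0.17 (SE 0.12) for the averaged knockout. Rpl41, the shortest ribosomal protein, stood at 0.15 (SE 0.15) and -0.19 (SE 0.15), and Rps27a, made as a fusion with ubiquitin, at -0.01 (SE 0.12) and -0.17 (SE 0.12).

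Of the paralogs, Rpl36al was expressed above its parent and the others below theirs. Rpl36al, an intronless copy of the X-linked Rpl36a, had 269 ± 83.2 TPM against 194 ± 55.5 TPM for Rpl36a (SD, n = 52). Rpl7l1 had 35.2 ± 7.86 TPM against 182 ± 40.6 for Rpl7, Rps27l 25.3 ± 14.1 against 113 ± 39.4 for Rps27, and Rpl22l1 16.2 ± 7.27 against 213 ± 53.95 for Rpl22. Rps4l had 1.71 ± 1.22 TPM against 120 ± 30.9 for the X-linked Rps4x. Rpl3, Rpl10 and Rpl39 stood at 144 ± 27.0, 272 ± 60.6 and 47.8 ± 17.2 TPM. Their paralogs Rpl3l, Rpl10l and Rpl39l are not among the 86 rows that the name rule takes.

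Rps27l ranged from 6.55 TPM in the lowest library to 67.9 TPM in the highest. Its group means lay between 18.03 ± 2.54 TPM in Akita knockout dapagliflozin and 34.9 ± 12.8 TPM in Akita wild-type vehicle libraries (SD, n = 6 each). Averaged over the strata it stood at -0.49 (SE 0.23, limma adjusted p 0.666) with the knockout, with 6.55, 30.0 and 67.9 TPM in wild-type and 7.52, 18.04 and 49.8 TPM in knockout libraries. Rpl22l1, which Rpl22 protein is known to repress, ranged from 3.80 to 42.8 TPM, with group means from 12.1 ± 3.07 TPM in Akita knockout dapagliflozin to 23.1 ± 11.6 TPM in nondiabetic wild-type vehicle libraries (SD, n = 6 each). In every group its libraries overlapped those of each other group.

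**Figure D5:**
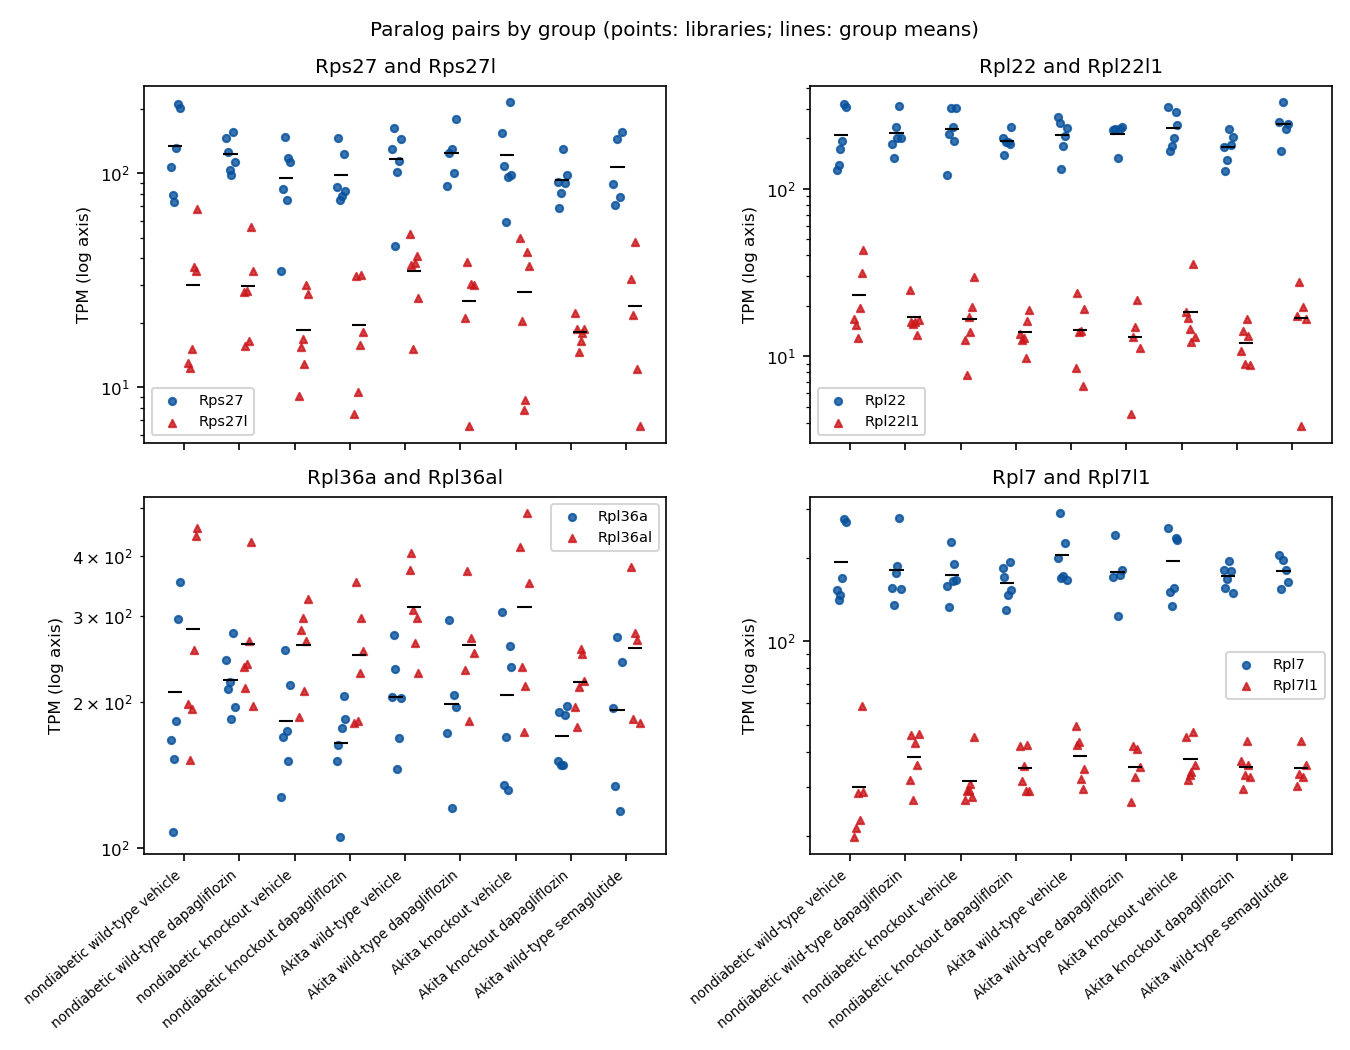
TPM (log axis) of 4 ribosomal protein genes (blue circles) and their paralogs (red triangles) in each library, by group, with group means as black lines. Rpl36al lies above Rpl36a on average (269 and 194 TPM), while Rps27l, Rpl22l1 and Rpl7l1 lie below their parents.

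Other genes of translation were compared through lists. Fau, which encodes a ribosomal protein fused to a ubiquitin-like protein, and Rack1, a scaffold on the small subunit, had 360 ± 112 and 168 ± 34.6 TPM (SD, n = 52). They correlated with the family at 0.83 and 0.74. The 17 translation partners with a TOP start had a median correlation of 0.63, from 0.90 for Eef1b2 to 0.05 for Eef2, both of them elongation factors. The median was 0.56 for 78 mitochondrial ribosomal protein genes, 0.41 for 17 initiation factors, 0.12 for 25 genes of ribosome assembly and RNA polymerase I, and 0.05 for 14 genes of TOR signalling.

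In limma 0 genes of any of these lists were called in any comparison. For averaged diabetes the median log2 change was 0.06 for the TOP partners (15 of 17 above 0), 0.14 for the initiation factors (16 of 17), 0.07 for the assembly genes (17 of 25), 0.02 for TOR signalling (8 of 14) and 0.11 for the mitochondrial ribosomal proteins (67 of 78), against 0.03 for all genes. For the averaged knockout these medians were -0.10, -0.07, -0.10, -0.01 and -0.09, and 0.00 for all genes. With semaglutide they were -0.01, -0.19, -0.09, 0.05 and -0.22, against -0.01 for all genes. Fau and Rack1 stood at 0.11 and 0.15 for averaged diabetes and at -0.18 and -0.05 for the averaged knockout.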

How the data were processed

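RNA of laser-dissected tubules was sequenced, per the labels' protocols, with a stranded SMARTer kit and an input of 0.5 ng per library. The authors deposited log10 values of TPM, on the mouse build GRCm38 per the submitters' processing notes. The aligner, annotation, scaling between libraries and read numbers were not given in the sources used here. Depth is therefore unknown, and counting intervals were left out. The name of the deposited table says that an outlier was removed, and it holds 52 of 54 samples. Akita wild-type semaglutide replicate 1 and Akita wild-type dapagliflozin replicate 2 were not analysed here. From log10, TPM was recovered, with 0 for empty cells. Positions and lengths came from GENCODE vM21.

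The 15424 genes averaging 1 TPM or more entered limma 3.58.1 (R 4.3.3) as log2(TPM + 1), in a model of 9 group means with a robust eBayes trend. The fit was tested on libraries shuffled between groups with seeded changes. False calls exceeded the threshold's share there for diabetes in wild-type vehicle and, less so, for averaged dapagliflozin and the averaged knockout, of the 5 comparisons tested. A fold change on this scale understates that of low genes. Averaged comparisons are the mean of 4 differences. Tables were read with data.table and jsonlite 2.0.0 in R and with pandas 2.3.3 and numpy 2.4.6 in Python 3.11.15, and figures drawn with matplotlib 3.10.9.

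The members and gene lists were chosen with earlier results of these data known. Replicates were numbered in accession order within a group. Genes are named by rule: any called member, those among the 5 highest and 5 lowest, paralogs beside their parents, 10 members with known roles, and, per comparison, the 2 lowest p-values above 0 and the 2 below 0 in change. The 5 genes outside the family most like it are named, with Fau, Rack1, Slc5a1, Slc5a2, Mdm2 and Cdkn1a. Eef1b2, Eef2, Tnxb, Pkhd1, the members at an unadjusted p under 0.05 for averaged diabetes and the genes whose start is shown were named after their values were seen. Alternatives were a pseudocount of 0.1, no filter, both rescalings, array weights, covariates, fitting only the groups compared, and leaving out each library. Single genes that these rules name are in places not reported here.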

Additional observations from a re-analysis of the deposited data

Results flagged for a closer look

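The 28 items checked were the median member, the family's percent of TPM outside mitochondrial ribosomal RNA, and named genes. In 252 groups of 5 or 6 libraries over these items, 24 held a single library far from the rest of its group (its gap to the next library over the group's range above Dixon's 95% critical value). Chance alone would give about 1 in 20 groups, or 12.6, and members that move together are not independent.

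Of the 24, 12 belong to nondiabetic wild-type dapagliflozin replicate 5. Its median member was 7.80 on the log2(TPM + 1) scale, against 6.97 to 7.27 in the other 5 libraries. It was also high for Rpl13a (828.3 TPM, others 505.3 to 614.01), Rpl19 (720.65, others 377 to 484), Rpl11 (334, others 168 to 225), Rpl27a (193, others 116 to 133) and Rps2 (308, others 143 to 197). The same held for Rps6 (474.51 TPM, others 188 to 294), Rplp1 (849, others 158 to 389), Rplp2 (471, others 248 to 317), Rpl36al (427, others 196 to 267) and Rpl7 (278, others 135 to 186). Rpl32l was low in it, at 11.1 TPM against 43.9 to 57.7.

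The other 12 each belong to a different library. Higher than the rest of their group were Rpl11 in Akita knockout dapagliflozin replicate 5 (231 TPM, others 140 to 174) and Rps6 in Akita wild-type vehicle replicate 5 (476, others 231 to 322). So were Rpl22l1 in Akita knockout vehicle replicate 4 (35.5 TPM, others 12.1 to 18.3) and nondiabetic wild-type dapagliflozin replicate 1 (24.7, others 13.5 to 16.4). Rpl7l1 was high in nondiabetic knockout vehicle replicate 6 (45.2 TPM, others 26.8 to 30.7) and nondiabetic wild-type vehicle replicate 5 (58.5, others 19.7 to 28.7). Among the copies, Rpl32l was high in nondiabetic knockout dapagliflozin replicate 3 (66.8 TPM, others 19.4 to 34.9) and Rps4l in Akita knockout vehicle replicate 1 (5.16, others 0.763 to 2.28). Rps3a3 was high in nondiabetic wild-type vehicle replicate 6 (11.9 TPM, others 0 to 3.65) and Rpl6l in nondiabetic knockout vehicle replicate 2 (7.54, others 0.792 to 2.90). Lower than the rest were Rplp0 in nondiabetic knockout vehicle replicate 1 (119 TPM, others 165 to 186) and Rpl22 in Akita wild-type dapagliflozin replicate 4 (154, others 224 to 234).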

How the results depend on the processing

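Of 662 recounts of called members under alternatives, 661 gave 0. The exception was diabetes in wild-type vehicle libraries, with 0 to 1 members called without 1 library: without nondiabetic wild-type vehicle replicate 5, Rpl7l1 was called (log2 0.64, limma adjusted p 0.0346, a comparison with excess false calls in shuffled libraries). That fit called 148 of the 15424 tested genes, against 60 in the main fit. Of 643 recomputed family medians, 48 changed sign, 14 of 434 without 1 library and 34 of 209 otherwise, in 15 of the 19 comparisons and interactions. The 4 without a sign change were averaged dapagliflozin, dapagliflozin in both knockout groups and the knockout in Akita dapagliflozin. Without 1 library the median ranged from 0.09 to 0.34 for diabetes in wild-type vehicle (lowest without nondiabetic wild-type vehicle replicate 2, highest without replicate 5). It ranged from 0.01 to 0.26 for dapagliflozin in nondiabetic wild-type mice (dapagliflozin replicate 5, vehicle replicate 6) and from -0.29 to -0.09 for semaglutide (semaglutide replicate 4, vehicle replicate 5). Only 7 medians moved by at least 1 SD of the libraries within groups (0.32), which exceeds each median itself. With the TPM sum as a covariate they were -0.17 for diabetes in wild-type vehicle, 0.12 for the knockout in nondiabetic dapagliflozin, -0.24 for dapagliflozin in nondiabetic wild-type mice, 0.14 for semaglutide and 0.20 for diabetes by dapagliflozin. With the short-minus-long score they were -0.15 for diabetes in wild-type vehicle and 0.17 for semaglutide. Rpl27a for diabetes in wild-type vehicle was -0.0145 with the TPM sum as a covariate. Rpl37 for knockout by dapagliflozin was -0.0851 with array weights and -0.11 to 0.15 without 1 library, and Rpl29 for the knockout in nondiabetic dapagliflozin was -0.12 to 0.19 without 1 library. The cause was not tested. These covariates and a rescaling by the median member, with 0 calls and a smallest adjusted p of 0.256 (Rpl27a, averaged diabetes), were chosen after seeing the data. No paired analysis was possible because the replicate numbers only name libraries in accession order. Depth is unknown, so no limit from read numbers can be given.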
